A study of Homo sapiens with 18 samples.

Results

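The effect of PDIA5 knockdown on gene expression was compared at 96 h and 48 h after transfection in LNCaP, a cell line from a human prostate cancer. For each gene the difference between siPDIA5 and control siRNA (siNC) libraries at 96 h was set against the same difference at 48 h, on the scale log2(RPKM + 1), where RPKM is a read density scaled to the length of the gene and the size of the library. The genes followed were the 11685 of 59385 features in the table whose mean was at least 1 RPKM over 18 libraries. By limma's moderated test on this difference of differences, with Benjamini-Hochberg adjustment over all tested genes, 2139 genes (18.3%) had an adjusted p under 0.05 and are termed called. The 12 libraries compared formed 4 groups of 3: siPDIA5 at 96 h, siNC at 96 h, siPDIA5 at 48 h and siNC at 48 h. All cells were LNCaP, grown in medium with 10% FBS and transfected with RNAiMAX, a lipid reagent, so transfection itself was common to every group. A further 6 libraries, 3 of siPDIA1 (against PDIA1, gene symbol P4HB) at each time, shared in the estimate of the spread and served as a second knockdown. Whether a group's 3 libraries are separate cultures is not stated, so p-values measure the spread between these libraries, which may be technical. Neither the sequences of the siRNAs nor whether each was a pool is stated in the sources used here. The groups stand for a single cell line.

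PDIA5 is a protein disulphide isomerase, a family of endoplasmic reticulum (ER) enzymes that form, break and rearrange disulphide bonds while secreted and membrane proteins fold. When folding fails, sensors in the ER membrane start the unfolded protein response, in which the transcription factor ATF4 raises genes of amino acid supply and, under lasting stress, DDIT3 (also called CHOP). In prostate cells, luminal identity, lipid synthesis and growth depend strongly on androgen signalling, which is read in kallikrein and other androgen-induced genes.

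The libraries held an estimated 29040000 to 43720000 reads on genes (median 37270000), read from the steps of the low values. The library farthest from its group mean was siPDIA1 replicate 1 at 96 h, with a root mean square deviation of 0.247 on the log2 scale. All 12 luminal prostate markers on the list passed the filter, and their summed level was 1619 to 1657 RPKM in siPDIA5 libraries at 96 h, 1356 to 1415 in siNC at 96 h, 1300 to 1328 in siPDIA5 at 48 h and 1275 to 1284 in siNC at 48 h. Of the markers of other cell types, the basal keratin KRT5, the fibroblast gene DCN and the leukocyte gene PTPRC were near 0, with at most 0.013, 0.0103 and 0.0263 RPKM in any library. Others were not: over the libraries the stromal markers ACTA2, COL1A1 and VIM spanned 1.12 to 16.3, 1.69 to 3.59 and 0.0348 to 2.48 RPKM, the basal marker LAMB3 0.108 to 4.004 and the endothelial marker VWF 0.901 to 3.24. The 12 basal markers, of which 1 passed the filter, summed to 3.48 to 3.79 RPKM in siPDIA5 libraries at 96 h, 1.12 to 1.57 in siNC at 96 h, 1.69 to 2.48 in siPDIA5 at 48 h and 0.821 to 1.18 in siNC at 48 h. The 9 endothelial markers, again with 1 passing, summed to 3.13 to 3.79 RPKM in siPDIA5 at 96 h, 2.21 to 2.32 in siNC at 96 h, 1.87 to 2.23 in siPDIA5 at 48 h and 1.59 to 2.10 in siNC at 48 h. None of the 12 leukocyte markers passed: CD3E was at 0 in every library, while CD4 reached 1.09 RPKM. Leukocyte markers summed to 0.241 to 0.563 RPKM in siPDIA5 at 96 h and 1.10 to 1.43 in siNC at 96 h. At 48 h they summed to 0.210 to 0.615 RPKM in siPDIA5 and 0.426 to 1.19 in siNC. The 13 protein genes of the mitochondrial genome took 8.69% to 9.68% of estimated reads in siPDIA5 libraries at 96 h, 7.88% to 8.66% in siNC at 96 h, 7.95% to 8.15% in siPDIA5 at 48 h and 7.22% to 7.71% in siNC at 48 h. These sums and that share moved with group and time, and their part in the results was not tested.

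The knockdown itself was in place at both times. PDIA5 (ENSG00000065485.20, chromosome 3, 123067062 to 123225227, plus strand; GRCh38, GENCODE 29, as for all positions here) was at 1.33, 1.63 and 1.25 RPKM in the siPDIA5 libraries at 96 h, against 15.7, 13.5 and 15.6 in siNC. At 48 h it was at 1.67, 1.33 and 1.66 RPKM after siPDIA5, against 14.4, 13.5 and 14.02 in siNC. The knocked-down libraries lay far below the controls at each time without overlap. The effect was -2.73 ± 0.08 at 96 h and -2.55 ± 0.08 at 48 h (log2 ± SE, here and below), and the difference of -0.18 ± 0.11 did not pass the test (adjusted p = 0.322). P4HB, the target of the second knockdown, was at 123, 131 and 120.0 RPKM after siPDIA5, 10.1, 8.17 and 9.26 after siPDIA1 and 72.4, 63.5 and 70.9 after siNC at 96 h. At 48 h it was at 125, 131 and 131 RPKM after siPDIA5, 5.71, 5.29 and 6.203 after siPDIA1 and 66.6, 66.3 and 67.7 after siNC. It was thus low after its own siRNA and higher after siPDIA5 at both times, again without a called difference in the siPDIA5 effect (-0.09 ± 0.10, adjusted p = 0.565). None of the 17 tested members of the PDI family was called for the difference by limma. At an unadjusted p under 0.05, 3 members were higher and 2 lower. Against siNC 9 were higher and 1 lower at 96 h, and 6 were higher and 1 lower at 48 h. Of all tested genes 20.8% were higher and 30.3% lower than in siNC at 96 h, and 16.6% and 29.2% at 48 h.

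Among all tested genes, 1077 had a higher siPDIA5 effect at 96 h than at 48 h (9.22%) and 1062 a lower effect (9.09%). The split depended on scaling: with each library centred on its median, 782 were higher and 1419 lower, and among genes with a mean of at least 5 RPKM 656 were higher and 1046 lower. Against siNC alone, 2433 genes were higher (20.8%) and 3539 lower (30.3%) after siPDIA5 at 96 h, and 1944 were higher (16.6%) and 3408 lower (29.2%) at 48 h. The 9 differences between siPDIA5 and siNC libraries at 96 h lay wholly above or below the 9 at 48 h in 2135 genes (18.3%). The median over all tested genes was 0.03 for the difference between times, -0.06 for the effect at 96 h and -0.09 for the effect at 48 h.

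The called genes were sorted by whether the effect passed the test at each time. Late genes, with an effect called at 96 h and not at 48 h, were the most frequent, with 766 (6.56% of tested genes), 383 of them higher and 383 lower. Their median effect size was 0.45 at 96 h and 0.09 at 48 h, and 706 of them had a 48 h effect smaller than 0.2. Growing genes, called at both times in the same direction and larger at 96 h, numbered 556 (4.76%), 236 higher and 320 lower, with a median size of 0.90 at 96 h and 0.39 at 48 h. Early genes, called at 48 h and not at 96 h, numbered 413 (3.53%), 166 higher and 247 lower at 48 h, with a median size of 0.09 at 96 h and 0.40 at 48 h. Fading genes, called at both times and smaller at 96 h, numbered 205 (1.75%), 96 higher and 109 lower, with a median size of 0.37 at 96 h and 0.79 at 48 h. In 167 reversing genes (1.43%) the effect was called at both times in opposite directions, 81 being higher and 86 lower at 96 h. A further 2901 genes (24.8%) were steady, called at both times in the same direction with no called difference, and 32 called genes passed at neither time. The classes rest on calls, so a gene near a threshold can change class with a small shift: JADE3 lay just inside the threshold for the difference, with an adjusted p of 0.0499, and RSRP1 just outside it, with 0.0501. Growing and reversing genes had a median level of 16.5 and 17 RPKM over the 18 libraries, late genes 10.1, fading genes 11.5 and early genes 7.37, against 6.05 for all tested genes. The median exon length was 5758 bases in fading and 5232 bases in early genes, against 4503 bases for all tested genes.

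**Figure D1:**
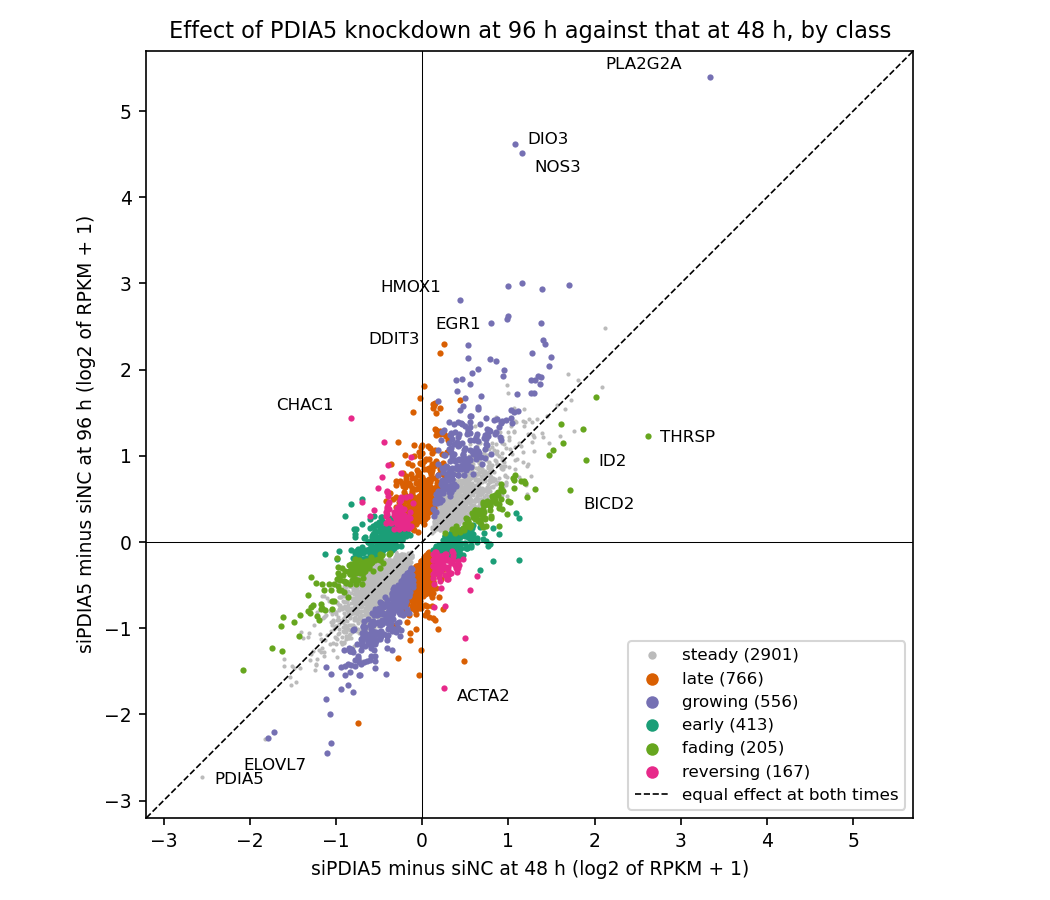
Difference between siPDIA5 and siNC at 96 h (vertical axis) against that at 48 h (horizontal axis), both as log2(RPKM + 1), for the 5 classes of called genes and the 2901 steady genes. Each point is a gene, the dashed line marks equal effects, and DIO3 and NOS3 lie farthest above it, with differences of 3.55 and 3.36.

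Among protein-coding genes, the 3 largest gains with time were in DIO3, NOS3 and HMOX1, all of them growing genes that were already higher at 48 h. DIO3 (ENSG00000197406.7, chromosome 14, 101561351 to 101563452, plus strand), which encodes a deiodinase that inactivates thyroid hormone, was at 38.6, 44.4 and 42.5 RPKM in the siPDIA5 libraries at 96 h, against 0.943, 0.765 and 0.538 in siNC. At 48 h it was at 1.81, 2.97 and 2.02 RPKM after siPDIA5, against 0.831, 0.245 and 0.588 in siNC. All siPDIA5 libraries were above all siNC libraries at each time, and those at 96 h stood apart from every other group. The effect was 4.62 ± 0.14 at 96 h and 1.07 ± 0.14 at 48 h, a difference of 3.55 ± 0.20 (adjusted p = 2.70e-08). NOS3 (ENSG00000164867.11, chromosome 7, 150990995 to 151014588, plus strand), the endothelial nitric oxide synthase, was at 27.3, 28.1 and 26.9 RPKM after siPDIA5 at 96 h, against 0.2297, 0.281 and 0.221 in siNC, and at 1.71, 2.26 and 1.65 RPKM after siPDIA5 at 48 h, against 0.275, 0.395 and 0.1995 in siNC. Its control libraries stayed below 0.4 RPKM throughout, and the difference was 3.36 ± 0.16 (adjusted p = 3.53e-09). HMOX1 (ENSG00000100292.18, chromosome 22, 35380361 to 35394214, plus strand), the haem oxygenase that degrades haem, was at 100.1, 101 and 106 RPKM after siPDIA5 at 96 h, against 16.8, 12.4 and 12.7 in siNC. At 48 h it was at 8.54, 7.47 and 8.34 RPKM after siPDIA5, against 6.37, 4.94 and 5.997 in siNC, so the control level also increased between the times. The difference was 2.37 ± 0.16 (adjusted p = 8.99e-08).

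Of the other 7 protein-coding genes among the 10 largest gains, 4 were growing, 2 late and 1 reversing. PLA2G2A, a secreted phospholipase, had effects of 5.39 ± 0.13 at 96 h and 3.34 ± 0.13 at 48 h, with 388, 377 and 414 RPKM in siPDIA5 libraries at 96 h, against 8.54, 7.45 and 9.22 in siNC. CRYAB and HSPB8, small heat shock proteins that hold unfolded proteins, had effects of 2.97 ± 0.09 and 3.01 ± 0.10 at 96 h, against 1.0 ± 0.09 and 1.16 ± 0.10 at 48 h. MGAT1, the Golgi enzyme that starts complex N-glycans, was at 56.8, 61.3 and 60.5 RPKM after siPDIA5 at 96 h, against 11.6, 10.8 and 11.9 in siNC, and at 15.8, 16.2 and 17.02 RPKM after siPDIA5 at 48 h, against 11.8, 10.4 and 10.8 in siNC. Its difference of 1.75 ± 0.07 was far wider than the spread of any group. EGR1, an immediate early transcription factor, was a late gene: it was at 6.57, 7.01 and 7.53 RPKM after siPDIA5 at 96 h, against 0.484, 0.683 and 0.731 in siNC, while the effect at 48 h was 0.25 ± 0.11 and did not pass the test (adjusted p = 0.0725). CEP85, a centrosome protein outside those 10, was another late gene, at 11, 10.8 and 10.1 RPKM after siPDIA5 at 96 h, against 3.19, 3.16 and 2.97 in siNC, with an effect of -0.11 ± 0.07 at 48 h.

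**Figure D2:**
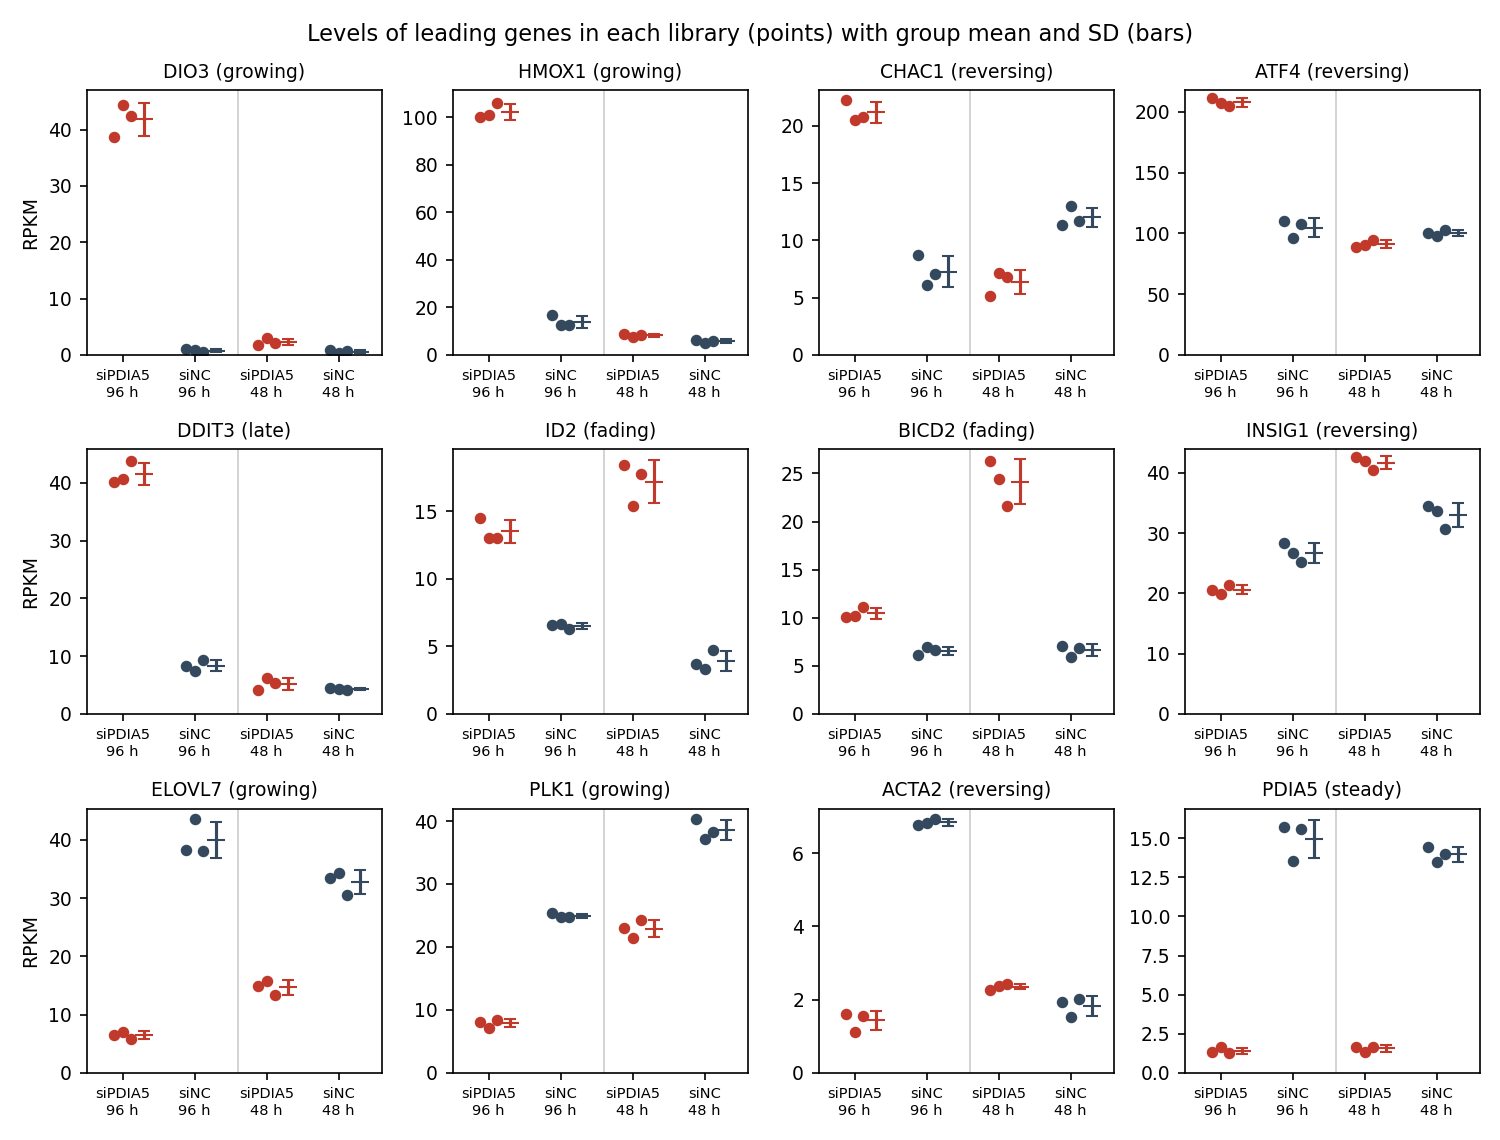
RPKM of 12 genes in each library (points, 3 per group) with the group mean and SD (bars), for siPDIA5 and siNC at 96 h and then at 48 h; the class of each gene is in its title. In DIO3, HMOX1 and DDIT3 the siPDIA5 libraries at 96 h stand apart from the other 3 groups, whereas PDIA5 is low after siPDIA5 at both times.

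Most ATF4 targets gained with time. Of 34 tested members, 27 had a higher effect at 96 h than at 48 h (79.4%, against 9.22% of all tested genes). None had a lower one. At an unadjusted p under 0.05 the counts were 29 and 0. The median difference was 0.71, against 0.03 for all tested genes. At 96 h 27 members were higher and 2 lower than in siNC, whereas at 48 h 7 were higher and 14 lower. Of all tested genes 20.8% were higher and 30.3% lower at 96 h, and 16.6% and 29.2% at 48 h. The called members comprised 9 reversing, 8 late, 7 growing and 3 early genes. ATF4 itself, the transcription factor of the amino acid and ER stress response, was at 212, 207 and 205 RPKM in siPDIA5 libraries at 96 h, against 110.1, 96.1 and 108 in siNC. At 48 h it was at 88.6, 90.2 and 94.8 RPKM after siPDIA5, against 100.1, 97.8 and 103 in siNC. The groups did not overlap at either time, and their order was opposite: the effect was 0.98 ± 0.05 at 96 h and -0.13 ± 0.05 at 48 h, a difference of 1.12 ± 0.07 (adjusted p = 2.98e-08). The small 48 h effect (adjusted p = 0.031 in limma) lay near the median of all tested genes, -0.09. That median was 0.01 with median centring, so the reversing class of ATF4 may depend on scaling, as may other small 48 h effects. CHAC1 (ENSG00000128965.13, chromosome 15, 40952962 to 40956519, plus strand), an enzyme that degrades glutathione, followed the same course with a larger size. It was at 22.2, 20.54 and 20.8 RPKM after siPDIA5 at 96 h, against 8.71, 6.08 and 7.03 in siNC, and at 5.17, 7.16 and 6.79 RPKM after siPDIA5 at 48 h, against 11.4, 12.97 and 11.7 in siNC. The siPDIA5 libraries were thus all above the controls at 96 h and all below them at 48 h, with effects of 1.44 ± 0.11 and -0.83 ± 0.11 (difference 2.26 ± 0.16, adjusted p = 1.10e-07). DDIT3, the transcription factor CHOP linked to cell death under ER stress, was at 40.2, 40.6 and 43.8 RPKM after siPDIA5 at 96 h, against 8.31, 7.36 and 9.23 in siNC. At 48 h its siPDIA5 libraries, at 4.06, 6.17 and 5.25 RPKM, overlapped those of siNC, at 4.51, 4.35 and 4.04.

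The list also holds transporters and enzymes of amino acid supply, some of them named after their values were seen. Among transporters, SLC7A11, which imports cystine, had an effect of 1.67 ± 0.16 at 96 h and -0.03 ± 0.16 at 48 h, SLC7A5, which imports large neutral amino acids, 1.5 ± 0.09 and 0.16 ± 0.09, and their shared partner SLC3A2 1.01 ± 0.06 and 0.25 ± 0.06. All 3 differences were called (1.7, 1.34 and 0.76). In serine and one-carbon synthesis, PHGDH, the entry enzyme of serine synthesis, reversed (0.31 ± 0.07 at 96 h, -0.27 ± 0.07 at 48 h). By contrast, SHMT2, a mitochondrial serine hydroxymethyltransferase, had a difference of 0.26 ± 0.10 that did not pass the test (adjusted p = 0.0758). Nor did the differences of ALDH18A1 and PYCR1 in proline synthesis (0.06 and -0.06), of CBS and CTH in cysteine synthesis (0.33 and 0.22), or of the transcription factor ATF5 (0.07). STC2, a secreted glycoprotein hormone, and PCK2, a mitochondrial phosphoenolpyruvate carboxykinase, had differences of 1.28 ± 0.09 and 1.05 ± 0.09. For PHGDH and PSAT1, an aminotransferase of the same pathway, the change between the times was 0.03 ± 0.07 and 0.10 ± 0.05 in siPDIA5 cells, which did not pass the test, and -0.54 ± 0.07 and -0.36 ± 0.05 in siNC cells, which did. Over the list, 22 members were higher and 2 lower at 96 h than at 48 h in siPDIA5 cells, and 6 were higher and 19 lower in siNC cells. Of all tested genes 20% were higher and 19.2% lower with time in siPDIA5 cells, and 11% and 13.3% in siNC cells. TRIB3, a pseudokinase induced downstream of ATF4, and PPP1R15A, the phosphatase subunit that restores translation after stress, were growing genes, with effects of 1.26 ± 0.07 and 1.06 ± 0.12 at 96 h, against 0.34 ± 0.07 and 0.49 ± 0.12 at 48 h.

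Of 20 cytosolic aminoacyl-tRNA synthetases, the enzymes that load tRNAs, 11 had a higher and 5 a lower effect at 96 h, so the family split. These were 55% and 25%, against 9.22% and 9.09% of all tested genes. AARS1, which loads alanine, was at 65.7, 69.05 and 65.6 RPKM after siPDIA5 at 96 h, against 34.6, 34.8 and 35.5 in siNC, and at 43.2, 43.4 and 44.6 RPKM after siPDIA5 at 48 h, against 44.6, 44.5 and 44.3 in siNC. Its groups overlapped at 48 h and stood well apart at 96 h (difference 0.94 ± 0.06, adjusted p = 2.98e-08). GARS1, SARS1 and MARS1, which load glycine, serine and methionine, had differences of 0.85 ± 0.07, 0.74 ± 0.08 and 0.67 ± 0.06. The list median was 0.24.

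Since most ATF4 targets moved together, their promoters were looked at: RefSeq windows (GRCh38.p14, 250 bases before to 50 after a gene's start) were searched for TGATGNAA, a core of the element bound by ATF4 with its C/EBP partners, on both strands (TTNCATCA on the other). The motif was chosen after the values were seen. Windows were found for 28 of the 34 ATF4 targets, and 5 of them held the motif (17.9%), against 1.54% of 8464 tested genes with a window and 3.67% of 27305 windows in all. By class, 12 of 287 late genes higher at 96 h held it (4.18%) and 3 of 311 late genes lower at 96 h (0.965%). The late class holds 8 of the ATF4 targets, so its share is not separate from theirs. As the list is one of ATF4 targets, its own share of an ATF4 element is no support from these data. For higher and lower effects the shares were 2.81% and 0.741% in growing, 6.06% and 0% in reversing and 2.44% and 1.12% in fading genes. In early genes higher or lower before 96 h they were 0.813% and 3.57%. A match is a description of the letters and not evidence of binding. The stretches around the match in the called members with a match before the start are shown 5′ to 3′ on the gene's strand, with the motif in capitals, to let the element be compared between genes of different course.
CHAC1 (reversing, chr15:40953232-40953299, plus strand): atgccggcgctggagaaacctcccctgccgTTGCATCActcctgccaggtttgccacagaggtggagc
ATF3 (growing, chr1:212565186-212565253, plus strand): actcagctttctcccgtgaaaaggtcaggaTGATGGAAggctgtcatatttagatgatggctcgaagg
ASNS (early, chr7:97872439-97872506, minus strand): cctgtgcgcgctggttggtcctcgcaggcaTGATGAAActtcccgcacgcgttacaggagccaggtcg
In CHAC1 the match was on the other strand. The genes differed in course: ATF3, a stress-induced transcription factor, had effects of 1.14 ± 0.09 at 96 h and 0.37 ± 0.09 at 48 h, whereas ASNS, asparagine synthetase, had 0.20 ± 0.10 at 96 h, which did not pass the test, and -0.31 ± 0.10 at 48 h, which did.

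**Figure D3:**
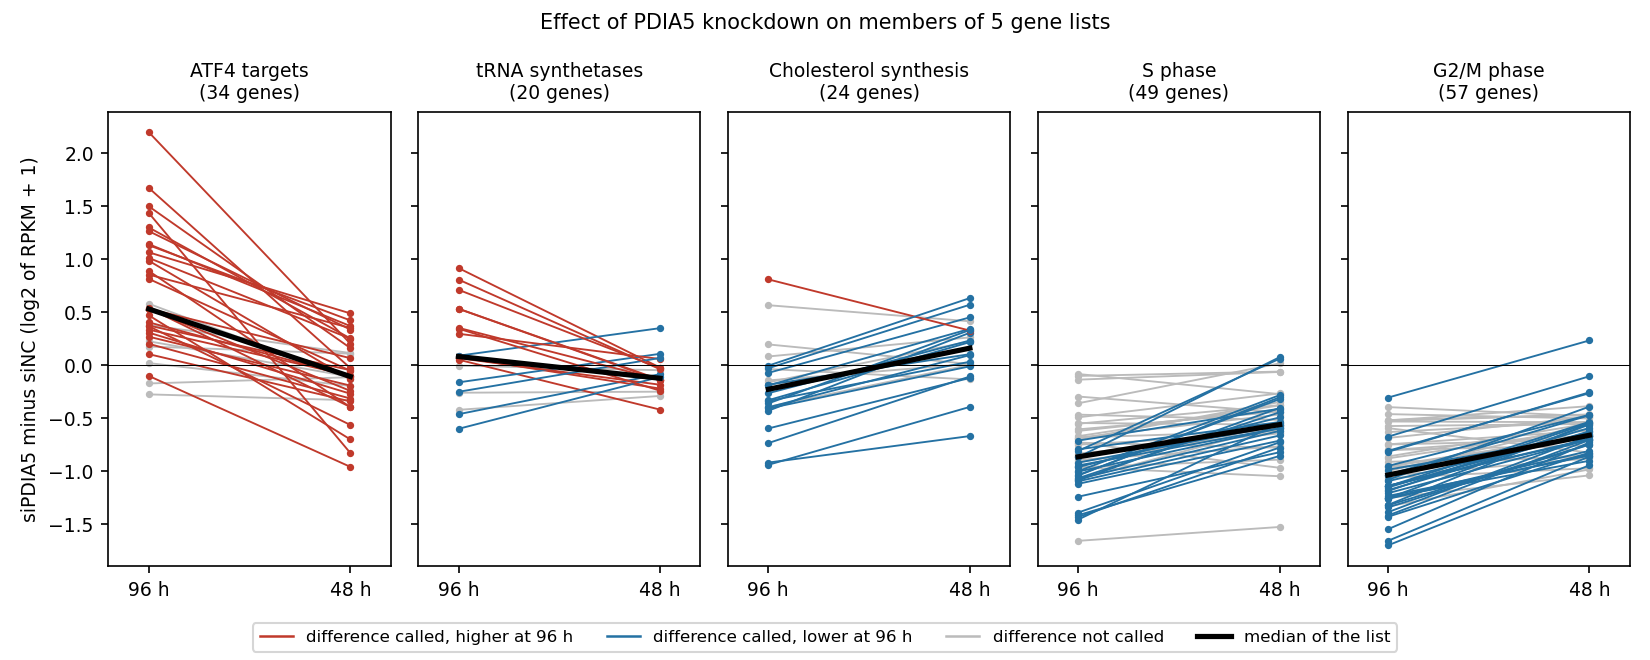
Difference between siPDIA5 and siNC (log2 of RPKM + 1) at 96 h (left of each panel) and 48 h (right) for the tested members of 5 gene lists. Each line is a gene, coloured where its difference between times was called, and the black line is the list median, which is 0.53 at 96 h and -0.11 at 48 h for ATF4 targets and -1.04 and -0.66 for G2/M genes.

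Of 24 tested NRF2 targets, the antioxidant genes driven by the factor NRF2, 10 had a higher (41.7%) and 3 a lower effect (12.5%) at 96 h. The shares over all tested genes were 9.22% and 9.09%. SQSTM1, an autophagy receptor, was at 321, 339 and 327 RPKM after siPDIA5 at 96 h, against 81.6, 78.1 and 83.8 in siNC, and at 82.96, 83.3 and 85.7 RPKM after siPDIA5 at 48 h, against 55.2, 51.7 and 52.2 in siNC. Both effects were called, and the difference of 1.35 ± 0.08 had an adjusted p of 2.98e-08. FTH1, the ferritin heavy chain that stores iron, had an effect of 1.88 ± 0.11 at 96 h and 0.40 ± 0.11 at 48 h. Its many processed copies in the genome could share reads, so its level is uncertain. NQO1, a quinone reductase, had 1.07 ± 0.07 and 0.18 ± 0.07. GCLM, a subunit of the enzyme that starts glutathione synthesis, was at 5.37, 5.83 and 5.05 RPKM after siPDIA5 at 96 h, against 6.45, 6.45 and 5.995 in siNC, and at 2.83, 3.47 and 3.18 RPKM after siPDIA5 at 48 h, against 7.85, 6.83 and 7.099 in siNC. The knocked-down libraries were below the controls at both times, and the deficit shrank to -0.19 ± 0.07 at 96 h, against -0.99 ± 0.07 at 48 h.

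Some immediate early and lysosomal genes also gained. Of 18 tested AP-1 and immediate early genes 9 had a higher (50%) and 1 a lower effect (5.56%) at 96 h. The shares over all tested genes were 9.22% and 9.09%. DUSP5, a phosphatase that curbs ERK signalling, had 1.96 ± 0.10 at 96 h and 0.58 ± 0.10 at 48 h, whereas SRF, the serum response factor, had -0.27 ± 0.04 and 0.24 ± 0.04. Of 37 tested lysosome and autophagy genes 9 had a higher (24.3%) and 1 a lower effect (2.7%). CTSB, the lysosomal protease cathepsin B, was a growing gene (1.33 ± 0.05 at 96 h, 0.89 ± 0.05 at 48 h), GABARAPL1, an autophagosome protein, was late (1.05 ± 0.05, -0.04 ± 0.05), and SCARB2, a lysosomal membrane receptor, reversed (0.52 ± 0.06, -0.19 ± 0.06). Among genes tied to cell fate, GDF15, a secreted stress cytokine, was at 1387, 1463 and 1455 RPKM after siPDIA5 at 96 h, against 482, 444 and 486 in siNC, with an effect of 0.13 ± 0.06 at 48 h that did not pass the test. VEGFA, an angiogenic growth factor, was late as well (1.13 ± 0.05 at 96 h, -0.09 ± 0.05 at 48 h). MCL1, which opposes apoptosis, was late and higher (0.54 ± 0.06 at 96 h).

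Some genes of ER stress and degradation had a higher effect at 96 h. Of 45 tested ER chaperones and degradation factors, 9 had a higher effect (20%, against 9.22% of all tested genes). A lower one was found in 5 (11.1%, near the 9.09% of all tested genes). Compared with siNC, 24 were higher and 4 lower at 96 h, and 22 were higher and 6 lower at 48 h. The shares of all tested genes were 20.8% and 30.3% at 96 h, and 16.6% and 29.2% at 48 h. The 5 lower effects came down to 3 without siNC replicate 3 at 96 h. They were 8 with median centring and 2 with quantile normalization. HERPUD1, an ER membrane protein of degradation, was at 38.5, 39.4 and 38.3 RPKM after siPDIA5 at 96 h, against 15.3, 15.4 and 16.1 in siNC, and at 23.5, 24.3 and 22.8 RPKM after siPDIA5 at 48 h, against 15.2, 15.3 and 13.9 in siNC. It was higher at each time, with a difference of 0.62 ± 0.07. SPCS1, a signal peptidase subunit, and ERN1, the stress sensor IRE1, were late (0.75 ± 0.05 and 0.70 ± 0.08 at 96 h), and the sensor ATF6 reversed (0.23 ± 0.07 at 96 h, -0.31 ± 0.07 at 48 h). HSPA5, the chaperone BiP, was looked at after its values were seen: its difference of 0.08 ± 0.06 did not pass the test (adjusted p = 0.419), with effects of 0.56 ± 0.04 at 96 h and 0.48 ± 0.04 at 48 h. In the heat shock list of 22 tested genes 3 had a higher effect (13.6%, against 9.22% of all tested genes). A lower effect was found in 5 (22.7%, against 9.09%). CRYAB and HSPB8 were among the higher ones, and the steroid receptor chaperones HSP90AB1 and FKBP4 among the lower (-0.24 ± 0.05 and -0.34 ± 0.07). The 5 lower heat shock calls were 8 with median centring and 3 with quantile normalization. The call of HSP90AB1 was lost with quantile normalization (adjusted p = 0.243).

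Most cell cycle genes on the lists were lower after siPDIA5 at both times, and many were further below siNC at 96 h. Of 57 tested G2/M genes, 57 were lower than in siNC at 96 h and 55 at 48 h, and in 32 the effect was lower at 96 h than at 48 h, with none higher (36 and 0 at an unadjusted p under 0.05). Of 49 tested S phase genes, 46 were lower at 96 h and 43 at 48 h, and 21 had a lower effect at 96 h with none higher (29 and 0 at an unadjusted p under 0.05). The lower calls were 56.1% of G2/M and 42.9% of S phase genes, against 9.09% of all tested genes. Compared with siNC, 30.3% of all tested genes were lower at 96 h and 29.2% at 48 h. The median difference was -0.42 for G2/M and -0.30 for S phase genes. PLK1, a mitotic kinase, was at 8.14, 7.14 and 8.36 RPKM after siPDIA5 at 96 h, against 25.3, 24.8 and 24.7 in siNC, and at 22.98, 21.5 and 24.2 RPKM after siPDIA5 at 48 h, against 40.3, 37.1 and 38.3 in siNC. The level dropped with time in both arms, and more so after siPDIA5 (change -1.43 ± 0.06, against -0.61 ± 0.06 in siNC). RRM2, the small subunit of ribonucleotide reductase, was at 4.23, 4.66 and 3.98 RPKM after siPDIA5 at 96 h, against 13.4, 13.7 and 13.4 in siNC, and at 14.6, 15.1 and 14.6 RPKM after siPDIA5 at 48 h, against 20.9, 22.6 and 22.6 in siNC. Its difference was -0.91 ± 0.07 (adjusted p = 5.15e-07). The mitotic kinase CDK1, the phosphatase CDC25B and the transcription factor MYBL2 had differences of -0.69 ± 0.08, -0.54 ± 0.06 and -0.77 ± 0.09. The G1 to S regulators E2F1 and CCNE1 were late, with effects of -0.87 ± 0.08 and -0.81 ± 0.08 at 96 h, against 0.07 ± 0.08 and 0.06 ± 0.08 at 48 h, whereas CDC6, which loads the replicative helicase, grew (-1.04 ± 0.07 at 96 h, -0.30 ± 0.07 at 48 h). All 57 tested G2/M genes were lower in siPDIA5 cells at 96 h than at 48 h, and 52 were lower in siNC cells. Of all tested genes 19.2% were lower with time in siPDIA5 cells and 13.3% in siNC cells. In bulk RNA, fewer cells in a phase and less RNA per cell cannot be told apart.

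Many mitotic promoters carry the cell cycle homology region, whose core is TTTGAA, searched here on both strands. This motif, also chosen after the values were seen, was in 31 of 48 G2/M genes with a RefSeq window (64.6%), against 8.86% of tested genes and 15.4% of all windows. It was in 41 of 270 growing genes with a lower effect (15.2%) and in 10 of 178 growing genes with a higher effect (5.62%). The growing class holds 30 of the tested G2/M genes, so its share is not separate from theirs. Nor is the G2/M share a finding of these data, since many mitotic promoters carry the core. For lower and higher effects the shares were 7.07% and 9.06% in late genes and 5.63% and 7.58% in reversing genes. They were 8.67% and 3.25% in early genes, by the 48 h effect, and 6.74% and 4.88% in fading genes. Of the G2/M genes called for the difference, at least 12 held it before the start, as this count left out the genes of a single chromosome. The 3 with the largest difference are printed to show where the core lies in each, in capitals.
PLK1 (growing, chr16:23678830-23678888, plus strand): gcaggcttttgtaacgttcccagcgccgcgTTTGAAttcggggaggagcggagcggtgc
CDC20 (growing, chr1:43358886-43358951, plus strand): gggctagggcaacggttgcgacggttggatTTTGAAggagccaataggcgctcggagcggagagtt
CDK1 (growing, chr10:60778140-60778205, plus strand): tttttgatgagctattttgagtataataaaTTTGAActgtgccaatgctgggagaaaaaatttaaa
The core ended 24 bases before the start in PLK1, 60 in CDC20, which encodes an activator of the anaphase-promoting complex and held 2 matches before its start, and 156 in CDK1. The effect on CDC20 was -1.66 ± 0.08 at 96 h and -0.86 ± 0.08 at 48 h.

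Many sterol genes were below siNC at 96 h and above it at 48 h. Of 24 tested genes of cholesterol synthesis and uptake, 16 had a lower effect at 96 h (66.7%, against 9.09% of all tested genes). A higher effect was found in 1 (4.17%, against 9.22%). At 96 h 3 were higher and 13 lower than in siNC, whereas at 48 h 10 were higher and 2 lower, and the list medians were -0.23 and 0.16. Of all tested genes 20.8% were higher and 30.3% lower at 96 h, and 16.6% and 29.2% at 48 h. INSIG1, which holds the sterol sensor SCAP in the ER, reversed: it was at 20.48, 19.9 and 21.4 RPKM after siPDIA5 at 96 h, against 28.4, 26.7 and 25.1 in siNC, and at 42.6, 41.9 and 40.5 RPKM after siPDIA5 at 48 h, against 34.5, 33.6 and 30.7 in siNC. Its libraries stood apart at both times, below siNC at 96 h and above it at 48 h (difference -0.69 ± 0.09, adjusted p = 8.26e-05). LSS, lanosterol synthase, was early (-0.03 ± 0.04 at 96 h, 0.57 ± 0.04 at 48 h), and DHCR7, the last enzyme of the pathway, late (-0.40 ± 0.05, 0.09 ± 0.05). Over the list 20 members were lower and 3 higher at 96 h than at 48 h in siPDIA5 cells, and 8 lower and 3 higher in siNC cells. Of all tested genes 19.2% were lower and 20% higher with time in siPDIA5 cells, and 13.3% and 11% in siNC cells. Of 18 members with a RefSeq window 1 held TCACNCCAC (GTGGNGTGA on the other strand), a core of the sterol regulatory element searched for after the values were seen (5.56%), against 1.15% of tested genes and 1.15% of all windows.

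Fatty acid genes went the same way in part, with 11 of 22 tested members lower (50%) and 3 higher (13.6%) in effect at 96 h. The shares over all tested genes were 9.09% and 9.22%. ELOVL7, an elongase of long fatty acids, was at 6.54, 7.06 and 5.84 RPKM after siPDIA5 at 96 h, against 38.3, 43.5 and 38.02 in siNC, and at 14.9, 15.8 and 13.3 RPKM after siPDIA5 at 48 h, against 33.4, 34.3 and 30.5 in siNC. Its difference was -1.34 ± 0.11, the most negative among growing genes (adjusted p = 7.04e-07). ACLY, which makes cytosolic acetyl-CoA, was late (-0.71 ± 0.07 at 96 h, -0.04 ± 0.07 at 48 h), and the elongase ELOVL5 and desaturase FADS2 reversed (-0.35 ± 0.05 and -0.10 ± 0.03 at 96 h, 0.40 ± 0.05 and 0.35 ± 0.03 at 48 h). THRSP, a nuclear protein of lipogenesis regulated by thyroid hormone, faded: it was at 2.75, 3.74 and 4.01 RPKM after siPDIA5 at 96 h, against 0.686, 0.385 and 1.93 in siNC, and at 5.87, 7.701 and 8.85 RPKM after siPDIA5 at 48 h, against 0.439, 0.395 and 0.269 in siNC. The siNC libraries at 96 h were widely spread, and the difference was -1.38 ± 0.33 (adjusted p = 0.008895).

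Many androgen-induced genes had a lower effect at 96 h. Of 34 tested members 16 had a lower effect (47.1%, against 9.09% of all tested genes) and 2 a higher one (5.88%, against 9.22%). The 2 higher ones were KLK3 and KLK2, and another listed kallikrein, KLK4, had a difference of 0.19 ± 0.07 that did not pass the test (adjusted p = 0.0791). KLK3, which encodes prostate-specific antigen, was at 609, 598 and 600.0 RPKM after siPDIA5 at 96 h, against 306, 272 and 295 in siNC, and at 304, 307 and 339 RPKM after siPDIA5 at 48 h, against 247, 245 and 257 in siNC. It was higher at both times and more so at 96 h (difference 0.71 ± 0.07, adjusted p = 4.83e-06). KLK2, a related protease, was late, with 0.57 ± 0.07 at 96 h and 0.16 ± 0.07 at 48 h, and its similarity to KLK3 leaves some reads open to misassignment. SLC45A3, a prostate-enriched transporter, went down further: it was at 36.2, 40.7 and 36.4 RPKM after siPDIA5 at 96 h, against 144, 155 and 160.3 in siNC, and at 66.2, 66.1 and 65.5 RPKM after siPDIA5 at 48 h, against 138, 144 and 137 in siNC. FKBP5, a cochaperone of steroid receptors, was at 6.16, 6.51 and 6.31 RPKM after siPDIA5 at 96 h, against 7.66, 8.49 and 7.96 in siNC, and at 17.9, 17.2 and 14.2 RPKM after siPDIA5 at 48 h, against 11.8, 11.9 and 12.3 in siNC. It was therefore lower than the control at 96 h and higher at 48 h (difference -0.72 ± 0.10). TMPRSS2, a membrane protease, was steady at -0.41 ± 0.04 and -0.43 ± 0.04, and SORD, sorbitol dehydrogenase, reversed (-0.49 ± 0.04 at 96 h, 0.14 ± 0.04 at 48 h). FOLH1, prostate-specific membrane antigen, counted with the luminal markers, grew (0.81 ± 0.05 at 96 h, 0.24 ± 0.05 at 48 h).

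Effects that were present at 48 h and then shrank were smaller in number. ID2, which blocks DNA binding by E proteins, was at 14.5, 13.04 and 13.01 RPKM after siPDIA5 at 96 h, against 6.603, 6.63 and 6.29 in siNC, and at 18.5, 15.4 and 17.7 RPKM after siPDIA5 at 48 h, against 3.66, 3.34 and 4.74 in siNC. Its effect was 0.95 ± 0.11 at 96 h and 1.9 ± 0.11 at 48 h, while the siNC level gained 0.62 ± 0.11. BICD2, an adaptor of the dynein motor, was at 10.1, 10.2 and 11.1 RPKM after siPDIA5 at 96 h, against 6.102, 6.91 and 6.68 in siNC, and at 26.3, 24.5 and 21.6 RPKM after siPDIA5 at 48 h, against 7.04, 5.93 and 6.88 in siNC. Here the siPDIA5 level fell with time (-1.13 ± 0.08), while the change in siNC of -0.01 ± 0.08 did not pass the test. ID3, a relative of ID2, and NFKBIA, the inhibitor that holds NF-kB in the cytosol, faded too (0.52 ± 0.13 and 0.69 ± 0.08 at 96 h, 1.22 ± 0.13 and 1.19 ± 0.08 at 48 h). RC3H2, an RNA-binding protein that limits mRNA stability, and KLHL28, a Kelch family protein, were lower at both times with a smaller effect at 96 h (-0.61 ± 0.14 and -0.47 ± 0.11, against -1.33 ± 0.14 and -1.23 ± 0.11 at 48 h).

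Among early genes, SLC6A6, the taurine transporter, was at 3.27, 2.77 and 2.901 RPKM after siPDIA5 at 96 h, against 2.82, 4.17 and 4.01 in siNC, and at 5.97, 5.55 and 6.25 RPKM after siPDIA5 at 48 h, against 2.88, 2.84 and 2.98 in siNC. Its groups overlapped at 96 h and not at 48 h (difference -1.04 ± 0.15, adjusted p = 2.64e-04). PNMA1, a retrotransposon-derived protein, and USP43, a ubiquitin protease, had effects of -0.02 ± 0.07 and -0.05 ± 0.07 at 96 h, and were higher at 48 h (0.79 ± 0.07 and 0.77 ± 0.07). LRRC8D, a subunit of volume-regulated anion channels, CPEB4, which controls mRNA polyadenylation, and ULBP1, a ligand of an activating receptor on killer cells, had effects of 0.10 ± 0.10, 0.15 ± 0.14 and 0.15 ± 0.16 at 96 h, and were lower at 48 h (-0.78 ± 0.10, -0.77 ± 0.14 and -0.79 ± 0.16).

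Since the difference has parts, the change in each arm was also tested. Between the times 2341 genes were higher (20%) and 2246 lower (19.2%) at 96 h in siPDIA5 cells, and 1285 were higher (11%) and 1554 lower (13.3%) in siNC cells. Of the 2139 genes called for the difference, the change under siPDIA5 was larger in size in 1703 (79.6%) and that under siNC in 436. In 1248 of them the changes pointed in opposite directions, and in 176 both were called and opposite. ACTA2 (ENSG00000107796.13, chromosome 10, 88935074 to 88991339, minus strand), smooth muscle actin, had the most negative difference of the protein-coding genes, and its larger change was in the control arm. It was at 1.61, 1.12 and 1.56 RPKM after siPDIA5 at 96 h, against 6.76, 6.83 and 6.94 in siNC, and at 2.27, 2.38 and 2.42 RPKM after siPDIA5 at 48 h, against 1.92, 1.51 and 2.02 in siNC. The change with time was -0.47 ± 0.08 in siPDIA5 cells and 1.48 ± 0.08 in siNC cells, both called, and the difference was -1.95 ± 0.11 (adjusted p = 2.77e-08). ACTA2 is also a stromal marker; the summed stromal markers were at 5.56 to 6.03 RPKM in siPDIA5 libraries at 96 h, 10.5 to 11.2 in siNC at 96 h, 5.32 to 5.61 in siPDIA5 at 48 h and 4.25 to 5.30 in siNC at 48 h, with 2 of 12 markers passing the filter and DCN near 0. MYL9, a myosin light chain, and TTR, a thyroid hormone carrier, had differences of -1.25 ± 0.16 and -1.51 ± 0.25, with changes of 0.14 ± 0.11 and -0.18 ± 0.18 in siPDIA5 cells that did not pass the test, and of 1.39 ± 0.11 and 1.33 ± 0.18 in siNC cells. TTR was at 7.41, 4.39 and 5.17 RPKM in siNC at 96 h, all above the other libraries of the 4 groups. CTXN1, a small membrane protein, and TUBA3D, an alpha tubulin with near-identical copies that could share its reads, changed in opposite directions in the arms, with differences of -1.01 ± 0.12 and -1.11 ± 0.17. ST6GALNAC1, a sialyltransferase, and the desmosomal cadherin DSC2 fell under siPDIA5 (-0.90 ± 0.09 and -0.51 ± 0.11) and gained 0.30 ± 0.09 and 0.56 ± 0.11 in siNC. MT2A, a metallothionein whose relatives could share reads, reversed upwards (0.76 ± 0.10 at 96 h, -0.47 ± 0.10 at 48 h).

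**Figure D4:**
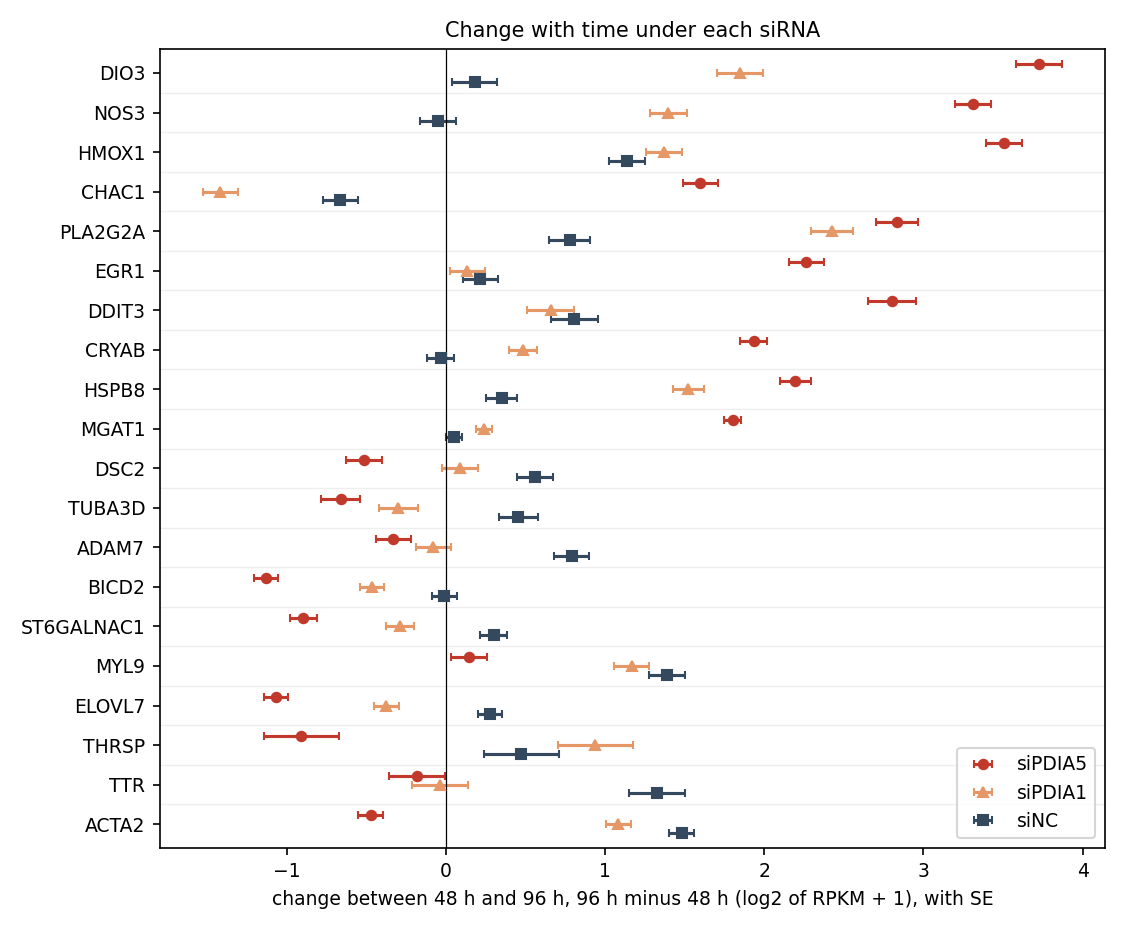
Change between the times (96 h minus 48 h, log2 of RPKM + 1, with SE from the model) under siPDIA5, siPDIA1 and siNC for the 10 protein-coding genes with the largest positive and the 10 with the largest negative difference. In DIO3, NOS3 and MGAT1 the change is largest in siPDIA5 with siNC near 0, whereas in ACTA2, TTR and MYL9 the siNC change is the largest of the 3.

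In several large cell machineries the number of called members depended on single libraries. Of 75 tested cytosolic ribosomal protein genes 9 had a lower and none a higher effect at 96 h, with a median difference of -0.23 (0 higher and 29 lower at an unadjusted p under 0.05). Without siNC replicate 2 at 96 h 47 were lower, without siNC replicate 2 at 48 h 4, and with median centring 15. For RPL5, siPDIA5 libraries at 96 h were at 165, 168 and 169 RPKM and siNC libraries at 224, 188 and 217, of which replicate 2 was the lowest, and the difference of -0.29 ± 0.08 lost its call with quantile normalization (adjusted p = 0.057). The copies of ribosomal protein genes in the genome leave such levels uncertain. With time 27 of the 75 were higher and 0 lower in siNC cells (median change 0.21). In siPDIA5 cells 0 were higher and 2 lower (median change -0.01). Of 73 tested nuclear genes of the respiratory chain 10 had a lower and 1 a higher effect. Without siNC replicate 2 at 96 h 22 had a lower effect, and without siNC replicate 2 at 48 h 6. ATP5F1A, a subunit of ATP synthase, had a difference of -0.41 ± 0.06. With time 14 of the 73 were higher and 0 lower in siNC cells, and 5 higher and 5 lower in siPDIA5 cells. Of 72 mitochondrial ribosomal protein genes 9 had a lower and 1 a higher effect. Without siNC replicate 2 at 96 h 19 had a lower effect, and without siPDIA5 replicate 3 at 48 h 5. With time 4 of the 72 were higher and 1 lower in siNC cells, and 4 higher and 13 lower in siPDIA5 cells. Of 35 proteasome genes 6 had a lower and 1 a higher effect, and 11 had a lower effect without siNC replicate 2 at 96 h. With time 6 of the 35 were higher and 3 lower in siNC cells, and 3 higher and 8 lower in siPDIA5 cells. For comparison with these counts over time, 11% of all tested genes were higher and 13.3% lower with time in siNC cells. In siPDIA5 cells these shares were 20% and 19.2%. None of the 13 mitochondrially encoded genes was called for the difference by limma, nor had an unadjusted p under 0.05. Over all tested genes 9.22% were called higher and 9.09% lower. Of 29 tested p53 targets 4 were higher (13.8%) and 2 lower (6.9%), of 22 interferon-stimulated genes 5 (22.7%) and 1 (4.55%), of 23 BCL2 family and caspase genes 5 (21.7%) and 2 (8.7%), and of 30 hypoxia and glycolysis genes 3 (10%) and 8 (26.7%). Interferon-stimulated genes had 3 higher calls without siNC replicate 1 at 48 h and also with median centring. Among BCL2 family and caspase genes the 5 higher calls came down to 2 without siNC replicate 2 at 48 h and also with median centring, and among hypoxia and glycolysis genes the 8 lower calls came down to 5 without that library.

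**Figure D5:**
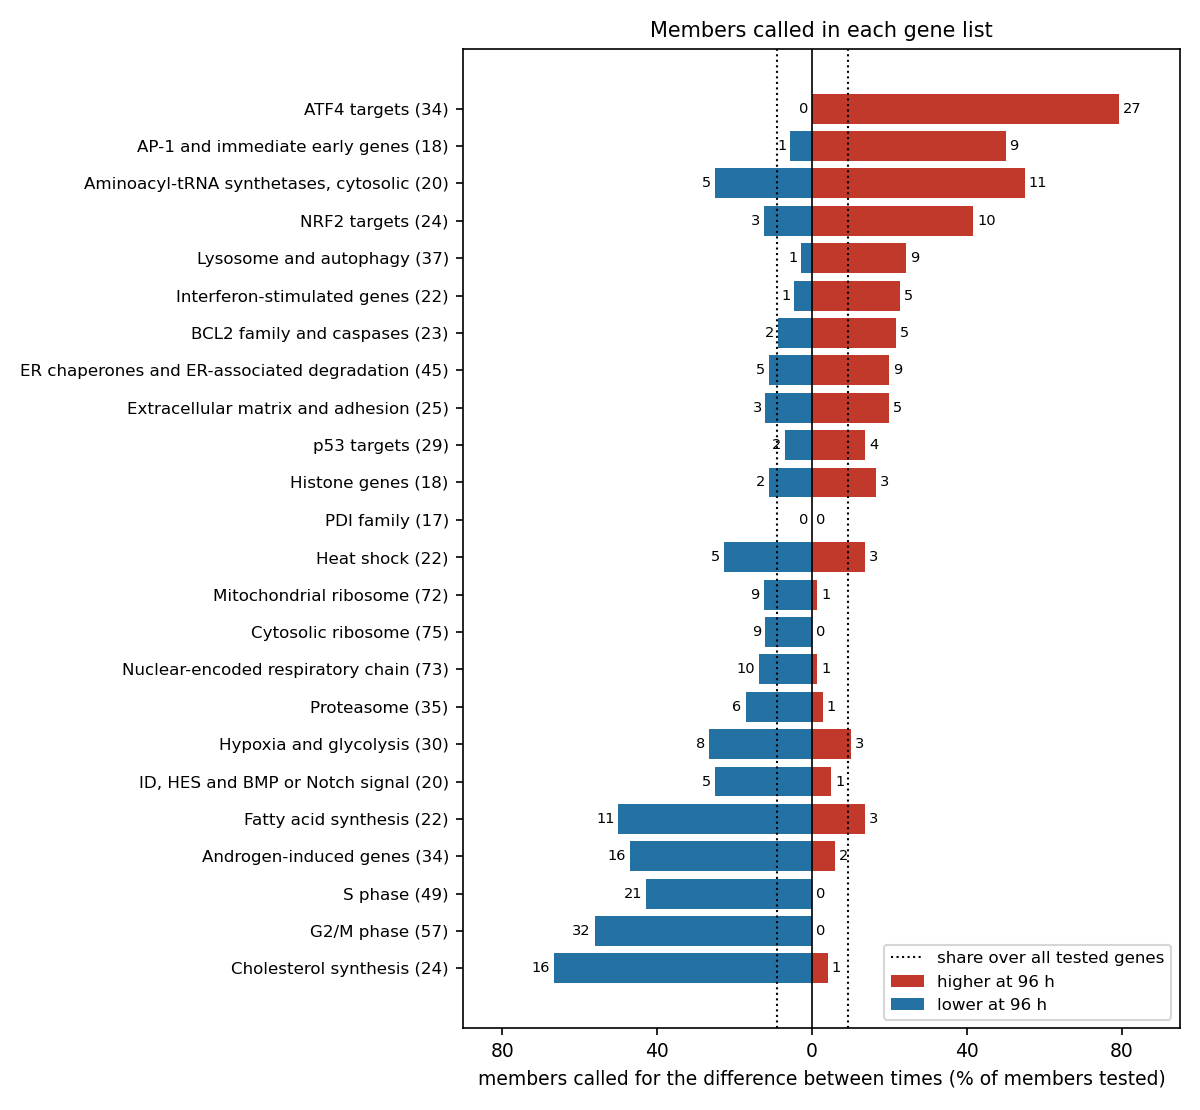
Share of tested members called for the difference between times in each gene list with at least 17 tested members (bars; the number of members called is printed at each end), higher effect at 96 h to the right and lower to the left. Dotted lines mark the shares over all tested genes, 9.22% and 9.09%; ATF4 targets lie farthest to the right and cholesterol synthesis farthest to the left.

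The second knockdown gave a test that uses no siNC library. The change between the times under siPDIA5 exceeded that under siPDIA1 in 1078 genes (9.23%) and was below it in 903 (7.73%). It holds the same siPDIA5 libraries as the difference that chose the genes, so the values below describe those genes and are no separate support. The effect of siPDIA1 against siNC differed between the times in fewer genes, with 292 higher (2.5%) and 347 lower (2.97%) at 96 h, and between the times 1479 genes were higher (12.7%) and 2112 lower (18.1%) at 96 h in siPDIA1 cells. The siPDIA1 effect shares its controls with siPDIA5, so these values only stand beside those of siPDIA5. Of the 34 tested ATF4 targets, 30 were higher in this contrast and none lower (30 and 0 at an unadjusted p under 0.05). The siPDIA1 effect on them was higher at 96 h in none (1 unadjusted) and lower in 12. That effect was also lower at 96 h in 11 of 24 sterol genes (median -0.32), 13 of 34 androgen-induced genes (median -0.26) and 11 of 49 S phase genes (median -0.24), and higher in 2 androgen-induced genes. CHAC1 was at 2.896, 2.57 and 2.95 RPKM after siPDIA1 at 96 h and 8.45, 9.75 and 9.27 at 48 h, and the siPDIA5 change exceeded the siPDIA1 change by 3.02 ± 0.16 (adjusted p = 3.48e-09). S100P, a calcium-binding protein, had a contrast of 2.64 ± 0.31. DDIT3 and HMOX1 had contrasts of 2.14 ± 0.21 and 2.13 ± 0.16. Of 57 G2/M genes, 23 were lower in the contrast and none higher (29 and 0 unadjusted). Of 24 sterol genes 4 were lower and 3 higher, and of 75 cytosolic ribosomal protein genes 43 were lower and none higher (61 and 0 unadjusted).

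The 5 lowest protein-coding genes of this contrast, TRPM8, SDCBP2, S100A10, THRSP and ACTA2, all gained with time under siPDIA1. TRPM8, a cold-sensing channel, was at 1.64, 1.09 and 1.24 RPKM after siPDIA5 and 15.3, 12.98 and 15.3 after siPDIA1 at 96 h, and at 1.56, 1.85 and 1.38 after siPDIA5 and 4.42, 3.98 and 4.13 after siPDIA1 at 48 h (contrast -1.75 ± 0.14). SDCBP2, a syntenin, was at 0.409, 0.655 and 0.194 RPKM after siPDIA5 and 5.403, 5.03 and 4.99 after siPDIA1 at 96 h, with a contrast of -1.8 ± 0.28, and S100A10, a partner of annexin, had -2.03 ± 0.50 with widely spread siPDIA5 libraries at 48 h, at 0.621, 0.693 and 3.12 RPKM. THRSP and ACTA2 had contrasts of -1.85 ± 0.33 and -1.56 ± 0.11. SYT4, a synaptotagmin of the neuroendocrine list, gained under both siRNAs: the difference was 0.93 ± 0.06 for siPDIA5 and 1.88 ± 0.06 for siPDIA1, and the contrast between the siRNAs was -0.95 ± 0.06.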

How the data were processed

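RNA of LNCaP cells was sequenced as stranded polyA libraries (Nugen Universal Plus mRNA-seq, 15 PCR cycles, per the labels' protocols). Per the submitters' processing notes, STAR 2.7.0f, featureCounts and cutadapt 1.8 were among the tools, with DESeq2 under R 3.4.1 and the build GRCh38. Annotation release and strand setting are not stated there or in the labels. The values the authors deposited are RPKM per gene, used here without counts. The steps of low values gave whole reads within 0.1 read for 99.63% to 99.82% of values, and from them an estimated depth. RPKM normalizes to each library's total, so a change in abundant genes shifts all others.

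Values were taken as log2(RPKM + 1), which understates changes of low genes, for genes with a mean of at least 1 RPKM. limma 3.58.1 (R 4.3.3) fitted 1 mean for each of 6 groups over 18 libraries, with a mean-variance trend. Tests were two-sided, with Benjamini-Hochberg adjustment over 11685 genes and calls at 0.05. The code was tested on simulated data, with 50 simulated differences of each size. Of these, 40 were recovered at -1 and 41 at 1, but only 16 at -0.5 and 17 at 0.5. A gene without a called difference, steady genes included, may therefore still have changed in effect. Positions and exon lengths came from GENCODE 29, and tables and plots used Python 3.11.15, pandas 2.3.3, numpy 2.4.6 and matplotlib 3.10.9.

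The genes followed, the classes and the gene lists were chosen with earlier results of these data known. Named genes were PDIA5, P4HB, KLK3, KLK2, TMPRSS2 and FKBP5, and, among protein-coding genes whose library differences did not overlap between the times, the 10 largest differences each way and the 4 largest in each class and direction. To these were added up to 4 called genes with the smallest adjusted p per list, the 5 largest each way between the siRNAs, and the genes on either side of 0.05. Some genes that the rule names are not reported here. ALDH18A1, ASNS, ATF5, CBS, CDC20, CTH, HSPA5, KLK4, PHGDH, PPP1R15A, PSAT1, PYCR1, SHMT2, SLC3A2, SLC7A5 and TRIB3 fall outside that rule and were named after their values were seen, as were single marker genes. Alternatives covered the pseudocount, the filter, median centring, quantile normalization, the libraries and genes fitted, the trend, a replicate block and each library left out.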

Additional observations from a re-analysis of the deposited data

Results flagged for a closer look

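Of the 111 tested genes named above, 93 had a siPDIA5 effect that differed between 96 h and 48 h by the test of that difference in limma (adjusted p under 0.05). They were named because the report is about that difference, so their number is a matter of selection. The value after each gene is the effect at 96 h minus that at 48 h on the scale log2(RPKM + 1), and levels and errors of most are given above. Growing genes with a higher effect at 96 h were DIO3 (3.55), NOS3 (3.36), HMOX1 (2.37), PLA2G2A (2.06), CRYAB (1.97), HSPB8 (1.84), MGAT1 (1.75), FTH1 (1.48), DUSP5 (1.38), SQSTM1 (1.35), PCK2 (1.05), TRIB3 (0.93), SYT4 (0.93) and NQO1 (0.88). Next in that order came ATF3 (0.77), SLC3A2 (0.76), KLK3 (0.71), HERPUD1 (0.62), PPP1R15A (0.58), FOLH1 (0.57) and CTSB (0.45). Growing genes with a lower effect at 96 h were ELOVL7 (-1.34), SLC45A3 (-0.92), RRM2 (-0.91), PLK1 (-0.82), CDC20 (-0.80), MYBL2 (-0.77), CDC6 (-0.74), CDK1 (-0.69), CDC25B (-0.54), ATP5F1A (-0.41) and HSP90AB1 (-0.24). Late genes with a higher effect at 96 h were EGR1 (2.05), DDIT3 (1.99), SLC7A11 (1.7), CEP85 (1.61), GDF15 (1.48), SLC7A5 (1.34), VEGFA (1.22), GABARAPL1 (1.09), S100P (1.0), AARS1 (0.94), GARS1 (0.85), SPCS1 (0.84), SARS1 (0.74) and ERN1 (0.61). Next in that order came MCL1 (0.48), PSAT1 (0.47) and KLK2 (0.41). Late genes with a lower effect at 96 h were TTR (-1.51), MYL9 (-1.25), ST6GALNAC1 (-1.2), DSC2 (-1.07), E2F1 (-0.94), CCNE1 (-0.87), ACLY (-0.68), DHCR7 (-0.49) and RPL5 (-0.29). Early genes with a higher effect at 96 h were ULBP1 (0.94), CPEB4 (0.92), LRRC8D (0.88), ASNS (0.52) and JADE3 (0.44). Early genes with a lower effect at 96 h were SLC6A6 (-1.04), PNMA1 (-0.81), USP43 (-0.81) and LSS (-0.60). Fading genes with a higher effect at 96 h were GCLM (0.81), KLHL28 (0.76) and RC3H2 (0.72). Fading genes with a lower effect at 96 h were THRSP (-1.38), BICD2 (-1.12), ID2 (-0.95), ID3 (-0.70) and NFKBIA (-0.51). Reversing genes with a higher effect at 96 h were CHAC1 (2.26), STC2 (1.28), MT2A (1.22), ATF4 (1.12), SCARB2 (0.71), MARS1 (0.67), PHGDH (0.58) and ATF6 (0.54). Reversing genes with a lower effect at 96 h were ACTA2 (-1.95), TUBA3D (-1.11), CTXN1 (-1.01), ELOVL5 (-0.75), FKBP5 (-0.72), INSIG1 (-0.69), SORD (-0.62), SRF (-0.51), FADS2 (-0.45) and FKBP4 (-0.34).

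The change between the times also differed between siPDIA5 and siPDIA1 cells by the test of that contrast. It was higher under siPDIA5 in CHAC1 (3.02), S100P (2.64), DDIT3 (2.14) and HMOX1 (2.13), and lower in S100A10 (-2.03), THRSP (-1.85), SDCBP2 (-1.8), TRPM8 (-1.75) and ACTA2 (-1.56), as siPDIA5 change minus siPDIA1 change. The siPDIA5 effect on S100P over time had an adjusted p of 0.0381, and 0.063 with a pseudocount of 0.25 (0.00175 to 0.1 over its alternatives).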

How the results depend on the processing

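Among genes with a mean of at least 5 RPKM, 656 had a higher siPDIA5 effect at 96 h. Fitting only the 12 siPDIA5 and siNC libraries left 107 fading genes, and an adjusted p under 0.01 for each call left 465 late and 182 early genes. Leaving out single libraries gave 834 to 1398 genes with a higher and 838 to 1305 with a lower effect, 598 to 969 late, 293 to 591 early, 430 to 664 growing, 138 to 216 fading and 131 to 212 reversing genes, and 1466 to 1807 genes differing between siPDIA5 and siPDIA1. For the siPDIA5 effect the highest count of each kind came without siNC replicate 2 at 96 h; the cause was not tested. The replicate number as a block gave 1009 higher and 999 lower. Same-numbered libraries of different groups correlated at -0.26 to 0.14 in their deviations, over 0.1 in 4 of 18 pairs. Differently numbered ones reached -0.30 and 0.29, both between siNC replicate 2 at 96 h and a siPDIA5 library at 48 h. The main fit therefore did not pair libraries by number, though such correlations cannot settle whether they were paired.

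Of 140 named genes, 13 changed call or sign under any of 21 settings. Signs turned only in genes with no called difference: P4HB with quantile normalization (0.0246), TMPRSS2 with median centring (-0.046), and SDCBP2 with median centring (-0.0345). Without single libraries TMPRSS2 ranged over -0.0131 to 0.0581 and SDCBP2 over -0.157 to 0.189. Counts of list members were recomputed under each setting, an addition made after seeing the data. The median of all tested genes for the difference was 0.03, against -0.03 with median centring and -0.02 with quantile normalization. At a given transcript length, calls for genes near the filter of 1 RPKM rest on the fewest reads.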
